A study of Zea mays with 46 samples.

Results

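Zm00001d018181 and Zm00001d018184 are neighbouring maize gene copies for flavonol synthase, known as fls1 and fls2. They were taken by identifier and are 2 of the 39005 genes in the count table. Which identifier carries which symbol is not given in the sources used here, so both are called by identifier.

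Flavonol synthase is an oxygenase of the flavonoid pathway that needs iron and 2-oxoglutarate and turns dihydroflavonols into flavonols. It draws on the same dihydroflavonols as dihydroflavonol reductase, the enzyme on the way to anthocyanins. Flavonols absorb ultraviolet light, and in silk and pericarp the flavonoid pathway also makes the insecticidal flavone maysin and the red phlobaphenes. P1 is a MYB transcription factor of the R2R3 type that switches on flavonoid genes in these tissues.

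RNA was sequenced in 9 groups of 3 libraries each. Leaf protoplasts, which are cells freed of their walls, came from seedlings of the B73 x A632 F1 hybrid aged 12 days and carried either P1 behind the 35S promoter, a strong promoter active in most plant cells (35S:P1), or an empty vector. Silk was unfertilized, at 0 days after pollination, and came from 2 stocks that differ at p1, named P1-rr and P1-ww, from the F1 hybrid and from its inbred parents B73 and A632. Pericarp, the outer layer of the kernel, was taken 14 days after pollination from P1-rr and P1-ww. Plants with P1-rr have a red pericarp and a red cob, while with P1-ww both lack colour. Each silk or pericarp replicate joined tissue of 2 field plants, so its value is an average over plants. For the protoplast RNA the labels do not say whether replicates were separate cell preparations, so p-values there measure the spread between these libraries, which may be technical. On the hybrid the labels contradict each other, and the field of each sample was followed. The labels give both P1 stocks the inbred name A619, and DNA differences between the stocks other than the p1 allele cannot be told apart from that allele. The level of p1 itself and markers of silk, pericarp and leaf were not analysed here, so the labels stand unchecked. Library totals ran from 18910941 to 54466743 counts. Because alignment was to B73, a copy that has diverged in A632 or A619 can read low whatever its expression.

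Both copies were read at low levels throughout. The table gives whole-number read counts, and levels are printed as CPM, the usual unit of counts scaled to the library total, which do not correct for gene length. Levels are therefore compared between groups for 1 copy at a time. A total of 3 counts over the libraries of a group, the floor used here, lay between 0.0249 and 0.0493 CPM. In bulk tissue, fewer expressing cells and less RNA per cell cannot be told apart.

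**Figure D1:**
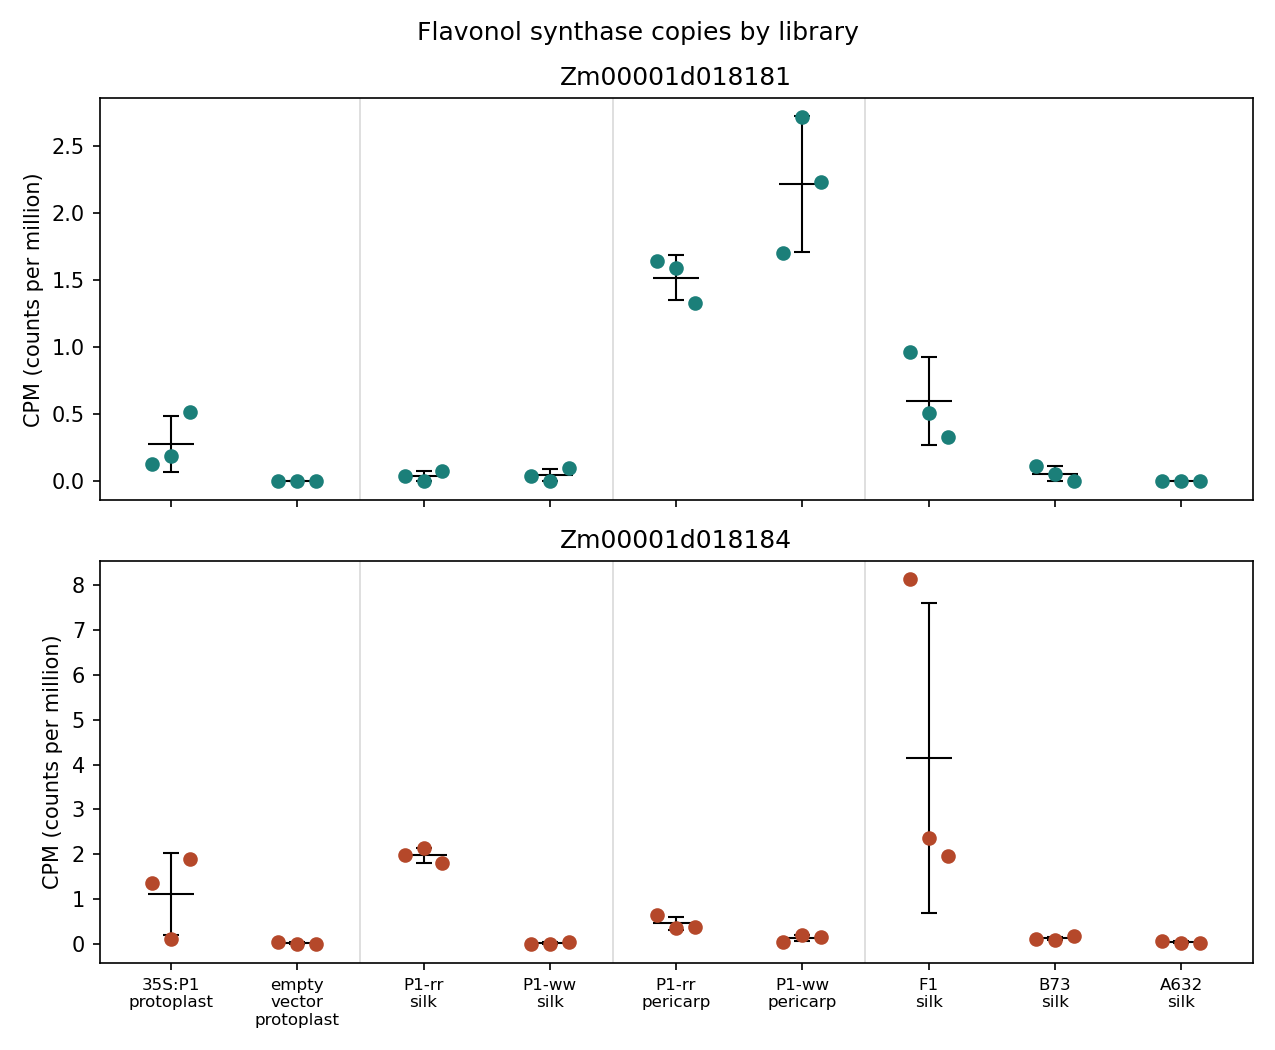
Level of each flavonol synthase copy in CPM (linear axes of different height) in the 27 libraries, by group. Points are libraries, long bars are group means and whiskers are SD (n = 3). Zm00001d018181 stands highest in both pericarp groups, with means of 1.52 and 2.22 CPM in P1-rr and P1-ww, and Zm00001d018184 stands highest in F1 silk, P1-rr silk and 35S:P1 protoplasts.

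The first comparison asks whether the copies respond when P1 is put into leaf cells. Both were read at higher levels in every 35S:P1 library than in any empty-vector library, from very few counts. The share of all genes whose libraries separate in this way was not counted, here or in the comparisons that follow. Such separation is therefore a description and not a test. Zm00001d018184 had 54, 3 and 103 counts in the 35S:P1 libraries (1.35, 0.115 and 1.89 CPM), against 2, 0 and 0 counts with the empty vector (0.0510, 0 and 0 CPM). Replicate 2 of 35S:P1 was far below the other replicates and lay close to the empty-vector library with 2 counts. Group totals, scaled by depth, gave a ratio of 71.6 (counting interval 19.5 to 596). Zm00001d018181 had 5, 5 and 28 counts with 35S:P1 (0.125, 0.191 and 0.514 CPM), against 0 counts in all 3 empty-vector libraries. Set against the floor of 3 counts over the empty-vector group, its 35S:P1 total gave a ratio of 11.3, which is not a strict lower limit.

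Whether these differences passed a test depended on the fit. Neither copy reached the filter on low counts in the 6 protoplast libraries, so the planned edgeR test, which called 0.139% of 25127 genes higher, gave no value for them. Without the filter, when 0.342% of 34171 genes were called, the log2 change was 5.49 ± 1.39 (SE) for Zm00001d018184 (edgeR adjusted p = 0.201) and 6.35 ± 1.74 for Zm00001d018181 (edgeR adjusted p = 0.318). Protoplast libraries that share a replicate number deviated from their group means in the same way. A fit with that number as a block and no filter was not planned, and it called 6.29% of genes higher. In that fit Zm00001d018184 rose by a log2 change of 5.54 ± 1.05 (edgeR adjusted p = 0.000603), while Zm00001d018181 stood at 6.33 and missed the threshold (edgeR adjusted p = 0.0563). DESeq2, which called 2.29% of genes higher, called Zm00001d018184 (adjusted p = 0.0101) and not Zm00001d018181 (adjusted p = 0.0735). With all 27 libraries in the fit, where 5.96% of genes were called higher, both were called, at edgeR adjusted p = 0.00103 for Zm00001d018184 and 0.00532 for Zm00001d018181. The blocked call of Zm00001d018184 was lost without 35S:P1 replicate 1 (8.11, edgeR adjusted p = 0.0695), without 35S:P1 replicate 3 (4.40, edgeR adjusted p = 0.212) and without empty-vector replicate 1 (8.22, edgeR adjusted p = 0.0782). It held without 35S:P1 replicate 2 (5.54, edgeR adjusted p = 2.81e-07), empty-vector replicate 2 (5.54, edgeR adjusted p = 1.5e-07) or empty-vector replicate 3 (4.43, edgeR adjusted p = 0.0186). A blocked call of Zm00001d018181 was gained without 35S:P1 replicate 2 (edgeR adjusted p = 0.0331) or without empty-vector replicate 2 (edgeR adjusted p = 0.0226).

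The second comparison sets silk of P1-rr against silk of P1-ww. Here only Zm00001d018184 passed the test. It had 56, 52 and 47 counts in P1-rr silk (1.98, 2.14 and 1.80 CPM), against 0, 0 and 1 count in P1-ww silk (0, 0 and 0.0488 CPM). The P1-rr libraries lay close together and all far above the P1-ww libraries. The ratio over the groups was 132 (counting interval 23.3 to 5238, wide through the single P1-ww count). The log2 change was 6.63 ± 0.89 (SE, edgeR adjusted p = 0.000365), in a comparison that called 5.87% of 25250 genes higher. This copy passed the silk filter through P1-rr silk, the group tested as high, and F1 silk. A fit without the filter gave 6.64 (edgeR adjusted p = 0.000186). With the filter, the change stayed between 6.08 and 8.89 and called when any 1 of the 6 libraries was left out. The 8.89 is the value without P1-ww replicate 3, which leaves that group at 0 counts.

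Zm00001d018181 had 1, 0 and 2 counts in P1-rr silk (0.0354, 0 and 0.0768 CPM), against 1, 0 and 2 counts in P1-ww silk (0.0404, 0 and 0.0976 CPM). Both groups were at the floor of 3 counts, so no fold is given. The fitted log2 change was -0.28 ± 1.33 (SE, edgeR adjusted p = 0.932, 95% interval -2.88 to 2.32), and a difference was not detectable at this depth. This copy passed the silk filter only through its counts in F1 silk.

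In pericarp, the tissue that P1-rr colours red, the copies stood on opposite sides of no change, and neither passed a test. Zm00001d018184 had 12, 9 and 9 counts in P1-rr pericarp (0.635, 0.357 and 0.385 CPM), against 1, 4 and 3 counts in P1-ww pericarp (0.0487, 0.194 and 0.152 CPM). The groups did not overlap, and the ratio over the groups was 3.38 (counting interval 1.52 to 8.54). It was below the filter, and the fit without it gave a log2 change of 1.70 ± 0.68 (SE, edgeR adjusted p = 0.156), where 3.97% of 31449 genes were called higher. DESeq2 gave an adjusted p of 0.204, where it called 8.91% of genes higher.

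Zm00001d018181 had 31, 40 and 31 counts in P1-rr pericarp (1.64, 1.59 and 1.33 CPM), against 35, 56 and 44 counts in P1-ww pericarp (1.70, 2.71 and 2.23 CPM). The highest P1-rr library lay just under the lowest P1-ww library. The ratio over the groups was 0.682 (counting interval 0.522 to 0.888) and the log2 change -0.61 ± 0.30 (SE, edgeR adjusted p = 0.204, 95% interval -1.19 to -0.03). That interval, from a normal quantile, lies wholly below no change, but the edgeR test itself gave an unadjusted p of 0.0757. That comparison called 7.25% of 22209 genes lower.

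Whether the P1-rr change differs between tissues was tested as an interaction, fitted to all 12 silk and pericarp libraries of these stocks. For Zm00001d018184 the change with P1-rr was smaller in pericarp than in silk by a log2 difference of -4.86 ± 1.03 (SE, edgeR adjusted p = 0.0115), where 5.77% of 24364 genes were called in this direction. Zm00001d018184 passed the filter of this fit through P1-rr silk, where it was high. Without the filter the difference was -4.90 (edgeR adjusted p = 0.011). The call held without each of the 12 libraries in turn (-6.79 to -4.34), with -6.79 without P1-ww silk replicate 3, which leaves P1-ww silk at 0 counts. It was lost with all 27 libraries in the fit (-4.92, edgeR adjusted p = 0.132), a fit that called 0.503% of genes lower. For Zm00001d018181 the difference was -0.35 ± 1.29 (SE, edgeR adjusted p = 0.899, 95% interval -2.88 to 2.19).

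**Figure D2:**
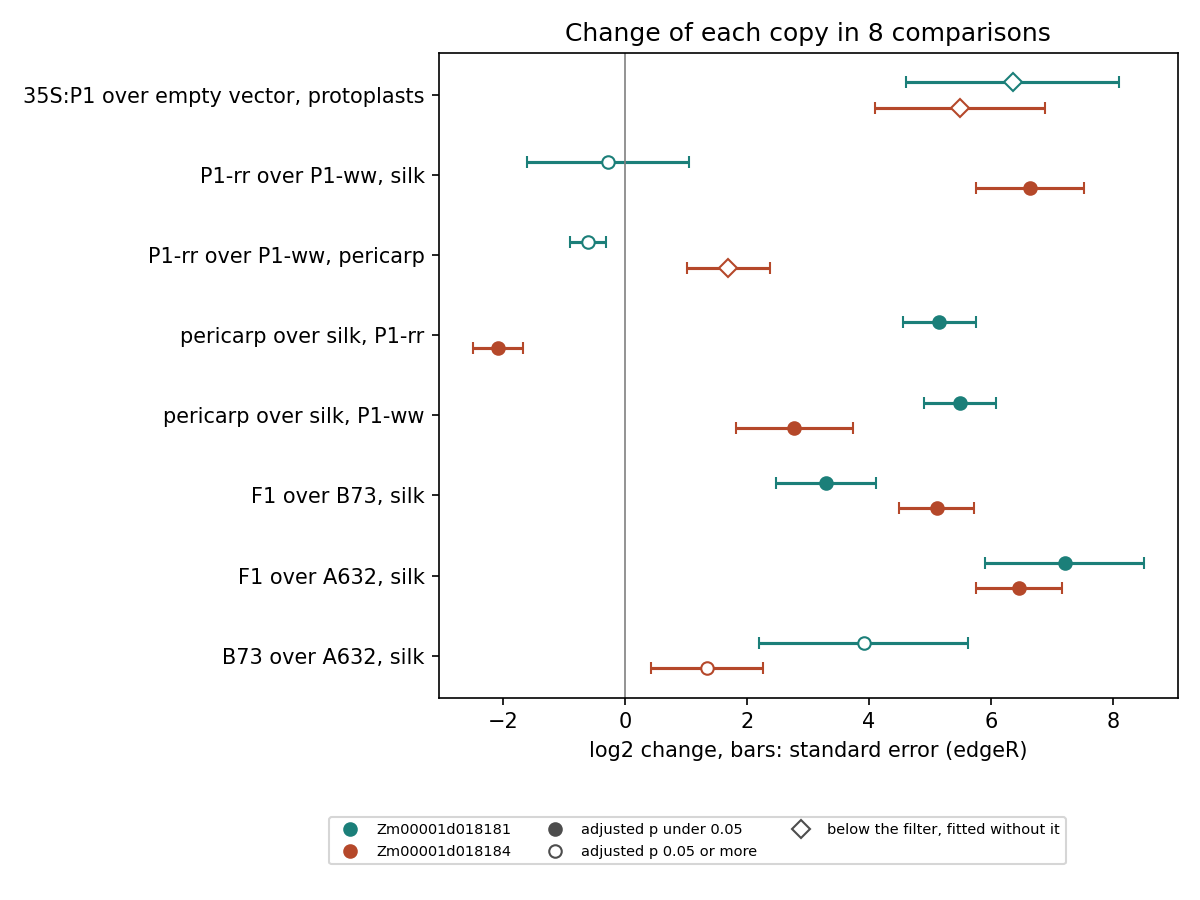
Log2 change of each copy in 8 comparisons, with whiskers for the SE. Filled circles passed the test, open circles did not, and open diamonds are copies below the filter on low counts, fitted without it. In P1-rr against P1-ww silk only Zm00001d018184 lies to the right (6.63), and between pericarp and silk of P1-rr the copies lie on opposite sides, at 5.15 and -2.08.

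Set by tissue rather than by allele, Zm00001d018181 rose in pericarp over silk in both stocks. Its 31, 40 and 31 counts in P1-rr pericarp stood against 1, 0 and 2 in P1-rr silk, a ratio of 39.6 (counting interval 13.2 to 195), and in P1-ww pericarp against P1-ww silk the ratio was 49.4 (16.5 to 243). No pericarp library came near a silk library. The log2 changes were 5.15 ± 0.60 in P1-rr (SE, edgeR adjusted p = 4.58e-06) and 5.50 ± 0.59 in P1-ww (SE, edgeR adjusted p = 2.12e-06). Without the filter, which this copy passed through pericarp, they were 5.09 (edgeR adjusted p = 1.92e-06) and 5.48 (edgeR adjusted p = 6.94e-07). With the filter they were 5.98 without P1-rr silk replicate 3 and 6.40 without P1-ww silk replicate 3. Tissue calls were common: 37.7% of 24364 genes were called higher in pericarp in P1-rr and 37.5% in P1-ww. Age after pollination differs along with tissue, and their parts cannot be told apart.

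Zm00001d018184 went opposite ways between the tissues in the 2 stocks. In P1-rr it fell to 0.357 to 0.635 CPM in pericarp, against 1.80 to 2.14 CPM in silk, with no overlap (ratio 0.226, counting interval 0.147 to 0.335). The log2 change was -2.08 ± 0.41 (SE, edgeR adjusted p = 0.000496), where 36.3% of genes were called lower. Without the filter, which this copy passed through P1-rr silk, the log2 change was -2.14 (edgeR adjusted p = 0.000552). In P1-ww it rose to a mean of 0.132 ± 0.0748 CPM in pericarp, against 0.0163 ± 0.0282 CPM in silk (SD, n = 3 each), a log2 change of 2.78 ± 0.96 (SE, edgeR adjusted p = 0.0182). That rise rests on 8 counts in pericarp against 1 in silk, and the lowest pericarp library, with 1 count, did not clear the highest silk library. The call was lost without P1-ww silk replicate 1 (edgeR adjusted p = 0.0654) or 2 (edgeR adjusted p = 0.0589), without P1-ww pericarp replicate 2 (edgeR adjusted p = 0.0714), and with all 27 libraries in the fit (edgeR adjusted p = 0.0701), which called 27.1% of genes higher. Without P1-ww silk replicate 3, which holds the only silk count, the log2 change was 4.70. The difference between the stocks is the same interaction term as above, -4.86.

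Summed into 1 row, the reads of both copies did not differ detectably between the tissues of P1-rr. The pair held 132 counts in P1-rr pericarp and 158 in P1-rr silk, and the log2 change of the sum was 0.00 ± 0.34 (SE, edgeR adjusted p = 0.992). A p above the threshold does not show that the totals are equal.

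In silk of the hybrid both copies stood above both inbred parents. Zm00001d018184 had 296, 97 and 72 counts in F1 silk (8.14, 2.36 and 1.96 CPM), against 4, 3 and 5 counts in B73 silk (0.117, 0.0824 and 0.167 CPM) and 2, 1 and 1 counts in A632 silk (0.0596, 0.0302 and 0.0313 CPM). F1 replicate 1 was well above the other F1 replicates, and every F1 library was above every parent library. The ratio was 34.1 over B73 (counting interval 19.3 to 66.5) and 100 over A632 (39.0 to 370). The log2 change was 5.11 ± 0.61 over B73 (SE, edgeR adjusted p = 2.35e-05), 6.45 ± 0.70 over A632 (SE, edgeR adjusted p = 9.24e-06) and 5.78 ± 0.50 over the parental mean of log levels (SE, edgeR adjusted p = 2.07e-06). Without F1 replicate 1 these were 4.11, 5.47 and 4.79, all still called. This copy passed the silk filter through F1 silk, the group tested as high, and P1-rr silk. Fits without the filter gave 5.06, 6.43 and 5.75 (edgeR adjusted p = 1.19e-05, 3.84e-06 and 6.25e-07).

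Zm00001d018181 had 35, 21 and 12 counts in F1 silk (0.962, 0.511 and 0.327 CPM), against 4, 2 and 0 counts in B73 silk (0.117, 0.0549 and 0 CPM) and none in A632 silk. Again no parent library reached an F1 library. The ratio was 9.97 over B73 (counting interval 4.35 to 28.1) and 19.6 over the floor of 3 counts set for A632. The log2 change was 3.29 ± 0.81 over B73 (SE, edgeR adjusted p = 0.00678) and 5.25 ± 0.83 over the mean of the parents (SE, edgeR adjusted p = 0.000483). This copy passed the silk filter only through F1 silk, the group tested as high. Without the filter the changes were 3.26 (edgeR adjusted p = 0.0126) and 5.23 (edgeR adjusted p = 0.000604). Without B73 replicate 1 the change over B73 was 4.18. Over A632, where the group held no count, the edgeR adjusted p was 0.000821, and 0.00103 without the filter. F1 silk was called higher for 22.4% of 25250 genes against B73, 23.8% against A632 and 23.6% against their mean. All of these F1 calls held without each library in turn. The 3 contrasts share the F1 libraries and the whole silk fit, so they are not separate pieces of evidence.

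Between the parents no difference passed the test in a comparison that called 24.8% of genes higher in B73. Zm00001d018184 had a ratio of 2.95 in B73 over A632 (counting interval 0.893 to 12.5) and a log2 change of 1.35 ± 0.92 (SE, edgeR adjusted p = 0.240), although the lowest B73 library lay above the highest A632 library. Zm00001d018181 had 6 counts in B73 and 0 in A632, with overlapping libraries (edgeR adjusted p = 0.0740). Without B73 replicate 3, the library with 0 counts, the edgeR adjusted p was 0.0384.

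Against silk of P1-rr only Zm00001d018181 passed the test. It rose in F1, with a ratio of 15.6 (counting interval 5.12 to 77.6) and a log2 change of 3.89 ± 0.91 (SE, edgeR adjusted p = 0.00309), where 30.2% of genes were called higher. Without the filter, which this copy passed only through F1 silk, the log2 change was 3.89 (edgeR adjusted p = 0.00504). Without P1-rr replicate 3 the log2 change was 4.77. For Zm00001d018184 the F1 and P1-rr libraries overlapped. Its ratio was 2.07 (counting interval 1.72 to 2.49) and its log2 change 1.13 ± 0.47 (SE, edgeR adjusted p = 0.0520), which passed the threshold without F1 replicate 2 (edgeR adjusted p = 0.0265) or 3 (edgeR adjusted p = 0.0163). Without F1 replicate 1 the log2 change was 0.16. The difference between the copies in this contrast was tested by the share of the pair's counts described further on. That test gave an exact permutation p of 0.1 (adjusted 0.2). This is the smallest p that 3 against 3 libraries allow, so the test could not pass.

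Silks of the P1 stocks were also set against the inbreds. Zm00001d018184 was higher in P1-rr than in B73, with a ratio of 16.5 (counting interval 9.19 to 32.6), no overlap and a log2 change of 3.98 ± 0.61 (SE, edgeR adjusted p = 6.6e-05), where 33.5% of genes were called higher. A fit without the filter, which this copy passed through P1-rr and F1 silk, gave 3.94 (edgeR adjusted p = 4.42e-05). Zm00001d018181 had 3 counts in P1-rr and 6 in B73, a log2 change of -0.59 ± 1.17 (SE, edgeR adjusted p = 0.676). In P1-ww silk over A632 silk Zm00001d018184 had 1 count against 4 (log2 change -1.31 ± 1.45 SE, edgeR adjusted p = 0.451). Zm00001d018181 had 3 counts against 0 there (edgeR adjusted p = 0.110), both at or under the floor. That comparison called 31.7% of genes higher and 30.8% lower.

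By their sample fields, F1 silk and empty-vector F1 protoplasts carry the same hybrid genome, in silk and in leaf cells without added P1. Zm00001d018184 was higher in F1 silk by a ratio of 220 (counting interval 60.5 to 1819) and a log2 change of 7.09 ± 1.15 (SE, edgeR adjusted p = 0.00147). Both rest on 2 counts in empty-vector replicate 1. The log2 change was 10.1 without that library, which leaves the group at 0 counts, 6.36 without empty-vector replicate 3 and 6.16 without F1 silk replicate 1, all still called. Zm00001d018181 was higher in F1 silk (edgeR adjusted p = 0.00392), with a ratio of 21.4 over the floor of 3 counts set for the empty vector. Both copies passed the filter of this fit only through F1 silk, the group tested as high. Without the filter the log2 change was 7.17 for Zm00001d018184 (edgeR adjusted p = 0.000841) and 7.29 for Zm00001d018181 (edgeR adjusted p = 0.00435). With the filter, the test called 31.5% of 25245 genes higher in F1 silk. Tissue, growth conditions and protoplast isolation all differ between these groups and cannot be told apart.

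In order of mean level, Zm00001d018181 stood at 2.22 ± 0.505 CPM in P1-ww pericarp, 1.52 ± 0.168 in P1-rr pericarp, 0.600 ± 0.327 in F1 silk and 0.277 ± 0.208 in 35S:P1 protoplasts (SD, n = 3 each). The other 5 groups had means of 0.0574 CPM or less: B73 silk, P1-ww silk, P1-rr silk, then empty-vector protoplasts and A632 silk at 0. Libraries of F1 silk and 35S:P1 protoplasts overlapped, as did those of these last 5 groups, while the pericarp groups did not overlap with each other or with F1 silk.

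Zm00001d018184 was ordered differently, with 4.15 ± 3.46 CPM in F1 silk, 1.97 ± 0.166 in P1-rr silk, 1.12 ± 0.911 in 35S:P1 protoplasts, 0.459 ± 0.153 in P1-rr pericarp and 0.132 ± 0.0748 in P1-ww pericarp (SD, n = 3 each). Then came B73 silk at 0.122 ± 0.0425, A632 silk at 0.0403 ± 0.0167, empty-vector protoplasts at 0.0170 ± 0.0294 and P1-ww silk at 0.0163 ± 0.0282. Among neighbours in this order only the 2 pericarp groups, and B73 and A632 silk, had no overlap between libraries. F1 silk, P1-rr silk and 35S:P1 protoplasts, the highest groups, overlapped step by step.

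The share of the pair's counts that fell on Zm00001d018184 puts both copies on 1 scale that does not depend on library size. It was 98.1% in P1-rr silk (98.2%, 100% and 95.9% by library), 87.2% in F1 silk (89.4%, 82.2% and 85.7%) and 80.8% in 35S:P1 protoplasts (91.5%, 37.5% and 78.6%). In pericarp it was 22.7% in P1-rr (27.9%, 18.4% and 22.5%), against 5.59% in P1-ww (2.78%, 6.67% and 6.38%). Silk of P1-rr or of the hybrid thus had most of the pair's counts on Zm00001d018184, and pericarp of either stock had most on Zm00001d018181. Gene length was not corrected for, and how reads matching both copies were counted is not known. Either can shift a share within a group. In B73 silk the share was 66.7% of 18 counts. P1-ww silk with 4 counts, A632 silk with 4 and empty-vector protoplasts with 2 held 0 to 3 counts of the pair per library. The 95% Clopper-Pearson intervals of the group shares were 94.6% to 99.6% in P1-rr silk, 84.1% to 90.0% in F1 silk, 74.6% to 86.0% with 35S:P1, 15.9% to 30.8% in P1-rr pericarp and 2.45% to 10.7% in P1-ww pericarp. They cover counting error only.

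**Figure D3:**
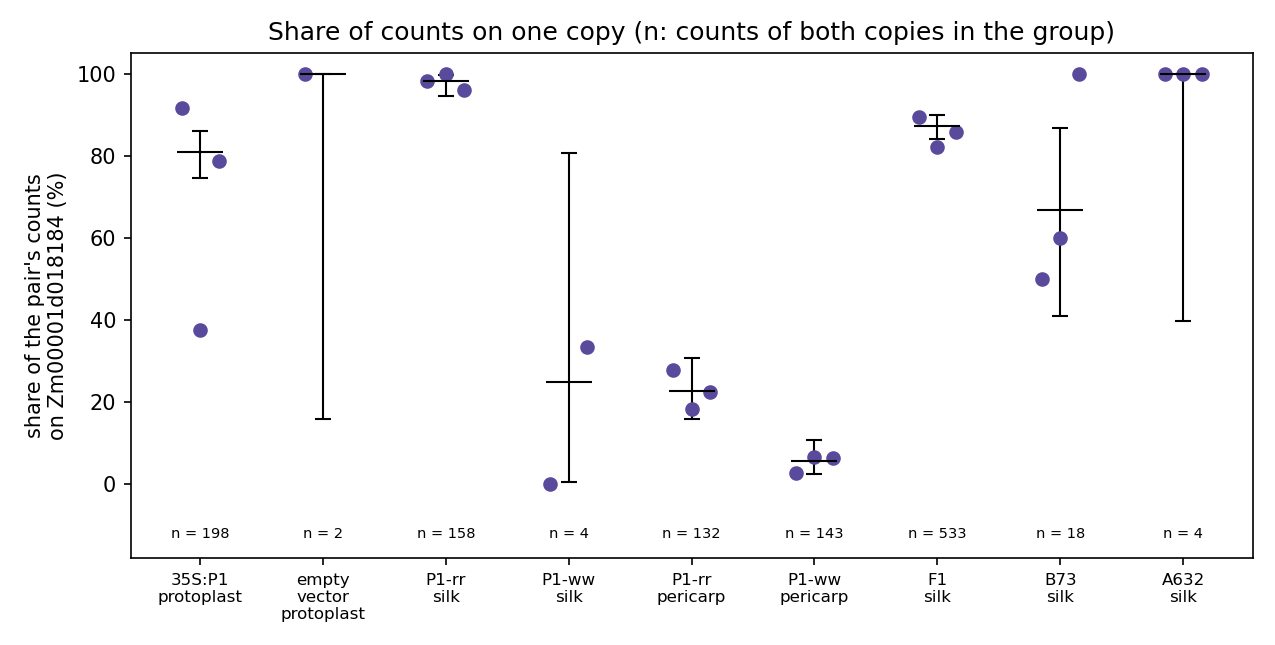
Share of the pair's counts on Zm00001d018184 in percent, by group. Points are libraries with at least 1 count of the pair, long bars are the share over the group and whiskers its 95% Clopper-Pearson interval, with the group's counts of both copies below. P1-rr silk (98.1%) and F1 silk (87.2%) lie high, and the pericarp groups (22.7% and 5.59%) lie low.

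Shares were tested over libraries in the 6 contrasts in which every library of the B73, F1, P1-rr and pericarp groups held at least 5 counts of the pair, 1 of them with the A632 libraries added. The share was 22.9% ± 4.78 in P1-rr pericarp and 5.28% ± 2.17 in P1-ww pericarp (SD, n = 3 each), a difference of 17.6 points. It was 22.9% ± 4.78 in P1-rr pericarp and 98.1% ± 2.05 in P1-rr silk, a difference of -75.1 points, and 85.8% ± 3.61 in F1 silk and 98.1% ± 2.05 in P1-rr silk, a difference of -12.3 points. In each of these 3 the groups did not overlap and the two-sided exact permutation test gave p = 0.1, the smallest that 3 against 3 libraries allow (Benjamini-Hochberg adjusted p = 0.2 over 6 tests). In B73 silk the share was 70.0% ± 26.5 (SD, n = 3), so that F1 silk minus B73 silk gave 15.8 points and P1-rr silk minus B73 silk 28.1 points, with overlap (exact permutation p = 0.4 each, adjusted 0.48). For F1 silk against all 6 parent libraries the difference was 0.78 points (exact permutation p = 1, where 0.0119 was the smallest possible). That value rests on 18 counts in B73 and on shares of 100% from 2, 1 and 1 counts in A632, so little can be read from it. For P1-rr against P1-ww silk, where the share could not be tested, the log2 ratio of the counts of Zm00001d018184 to those of Zm00001d018181, with 0.5 added to each, averaged 5.40 and -0.77. This difference of 6.17 had an exact permutation p of 0.1, again the smallest possible, and an adjusted p of 0.186 over 13 ratio tests.

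The numbering places 2 genes between the copies. Zm00001d018183 was read in every group, at means of 14.0 to 48.4 CPM. Its log2 change was 0.38 ± 0.40 with 35S:P1 over the empty vector, 0.07 ± 0.11 in P1-rr over P1-ww silk and -0.12 ± 0.12 in P1-rr over P1-ww pericarp (SE, edgeR adjusted p = 1.00, 0.753 and 0.536). In F1 silk it rose over the mean of the parents, as both copies did, by a log2 change of 0.63 ± 0.09 (SE, edgeR adjusted p = 0.000151). Over P1-rr silk it rose by 0.58 ± 0.11 (SE, edgeR adjusted p = 0.000436). Zm00001d018182 was read in protoplasts, at 0.236 ± 0.139 CPM with 35S:P1 and 0.140 ± 0.0359 CPM with the empty vector (SD, n = 3 each), and had 0 to 2 counts in each silk or pericarp group.

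The genes whose levels followed each copy most closely over the 27 libraries were found by Pearson's r of log2 CPM among 22979 genes with a mean of at least 1 CPM. The 27 points fall into 9 groups that share tissue and genotype, so r is a description. For Zm00001d018181 the closest were Zm00001d043375 (r = 0.90) and Zm00001d010039 (r = 0.90). Zm00001d043375 stood at means of 13.0 CPM in P1-rr pericarp and 15.5 in P1-ww pericarp, 5.74 in F1 silk, 4.29 in 35S:P1 protoplasts and 1.21 or less in the other 5 groups. Zm00001d010039 likewise stood highest in pericarp, at 22.5 CPM in P1-rr and 29.2 CPM in P1-ww.

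For Zm00001d018184 the closest were Zm00001d037784 (r = 0.83) and Zm00001d037382 (r = 0.82), both far more abundant. Zm00001d037784 stood at 1378 CPM in F1 silk, 1015 in 35S:P1 protoplasts and 4.65 in empty-vector protoplasts. In P1-rr and P1-ww it stood at 229 and 4.64 CPM in silk and at 331 and 6.63 CPM in pericarp. Zm00001d037382 stood at 25.9 CPM in P1-rr silk and 2.23 in P1-ww silk, and at 64.5 CPM in P1-rr pericarp and 4.10 in P1-ww pericarp. Both thus stood higher in P1-rr pericarp than in P1-rr silk, the reverse of Zm00001d018184. Between the copies r was 0.40. That pair was named beforehand and lay near the floor in many groups, while the values above are the highest among all candidates. They are therefore not to be ranked together.

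**Figure D4:**
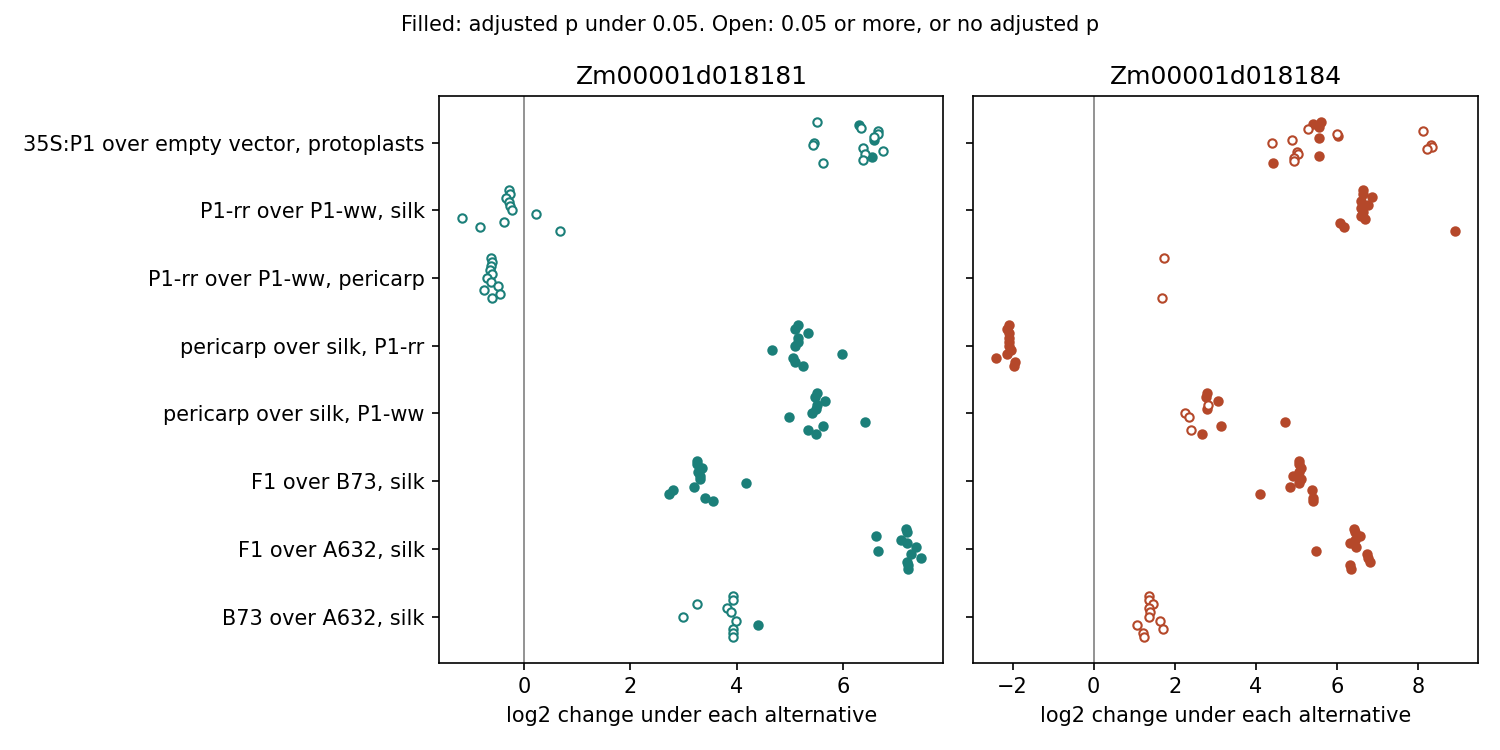
Log2 change of each copy under each alternative way of fitting, in 8 comparisons, with the sum of both copies left out. Each circle is 1 alternative, filled where the adjusted p was under 0.05, and the vertical line marks no change. Zm00001d018184 in P1-rr over P1-ww silk and both copies in F1 silk over B73 and A632 are filled throughout, while the protoplast comparison mixes filled and open circles at values of 4.40 to 8.33 for Zm00001d018184.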

How the data were processed

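RNA-seq read counts per gene were deposited by the authors as 1 table of 39005 genes and 27 libraries, whole numbers with no normalization. Per the submitters' processing notes, the genome build was B73 RefGen_v4 and the tools named are bcl2fastq 2.20.0, FastQC, Trimmomatic, Bowtie2 2.3.4.1 and HISAT2 2.0.4. How reads were counted, and what was done with strand and with reads that match both copies, is not given in the sources used here, so a split between copies that share reads is uncertain. The 16 deposited peak lists were not used here, because the positions of the copies on that build were not at hand, and no list of pathway genes was analysed for lack of names paired with identifiers.

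CPM are counts divided by the deposited library total. Tests were two-sided edgeR 4.0.16 quasi-likelihood tests in R 4.3.3 on all genes, with TMM factors, the filterByExpr filter (where a copy fell below it, the fit without the filter is given) and Benjamini-Hochberg adjusted p under 0.05. The 15 silk libraries were fitted together. Protoplast and pericarp libraries were fitted apart, the tissue contrasts and the interaction on the 12 libraries of the P1 stocks, and F1 silk with empty-vector protoplasts on those 6. SE were derived from each log2 change and its F value, and 95% intervals from the SE with a normal quantile. With so few libraries these intervals are narrower than the F test implies, so the calls rest on the test. Ratios are of group totals with exact counting intervals, and a group at 0 was set to a floor of 3 counts over the group (both cover counting error only). The scripts were tested on simulated data, with changes placed only in genes that passed the filter and had more counts than the copies had in many groups. That test does not cover values near the floor. Alternatives included DESeq2 1.42.0, no filter, both copies summed and the replicate number as a block. In protoplasts, combinations of these, and leave-outs without the filter, were not planned.

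The copies, the comparisons and the rules for other named genes were chosen with earlier results of these data known. Named besides the copies are the 2 genes closest to each in r and the identifiers between them. Libraries of 1 group differed beyond sampling noise (chi-square of 7.40 to 666 per degree of freedom), so no pair was merged as repeat deposits of 1 library. Deviations from the group means correlated between same-numbered protoplast libraries (r across genes 0.52 to 0.81) and by at most 0.29 between others, so the numbers pair them; this comes from the data, not the labels. No other groups were paired. The labels contradict each other on the hybrid, where the field of each sample was followed, and the tissue field of the pericarp samples reads kernels.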

Additional observations from a re-analysis of the deposited data

Results flagged for a closer look

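For Zm00001d018184 the change with P1-rr over P1-ww differed between pericarp and silk by a log2 difference of -4.86 ± 1.03 (SE, edgeR adjusted p = 0.0115), tested as the interaction term over 12 libraries. Its mean level was 0.459 ± 0.153 CPM in P1-rr pericarp and 0.132 ± 0.0748 CPM in P1-ww pericarp, and at 1.97 ± 0.166 CPM in P1-rr silk and 0.0163 ± 0.0282 CPM in P1-ww silk (SD, n = 3 each). Every P1-rr library lay above every P1-ww library in both tissues, but the share of all genes that separate in this way was not counted. The interaction test called 5.77% of 24364 genes in this direction. With all 27 libraries in the fit, which called 0.503% of genes lower, the call of Zm00001d018184 was lost (-4.92, edgeR adjusted p = 0.132). The P1-ww silk group held 1 count in all, so the size of the difference rests on a value near 0. Depth overlapped between the tissues, at 18910941 to 25175345 counts in the pericarp libraries and 20490591 to 28224572 in the silk libraries of these stocks. The part of depth in the difference was not tested.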

How the results depend on the processing

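Of 418 values under alternatives, 390 were counted as the same, 19 newly passed the threshold, 6 no longer passed it and 3 reversed. For fitted changes, the same means the same side of the threshold, and the same direction where called. Differences in share were not judged that way. A leave-out counted as the same where it moved the difference by less than the larger SD of the groups. The log2 ratio of the counts was entered as the same by rule without being judged, so those entries say nothing about stability. For P1-rr over B73 silk its exact permutation p was 0.1, against 0.4 for the share. For F1 against both parents the difference ran from -6.22 to 3.78 points, counted as the same. The summed row of both copies differs from either copy by its construction: it gave a log2 change of 4.91 for P1-rr over P1-ww silk and 3.44 for P1-rr over B73 silk, the reverse of Zm00001d018181, -5.20 for the difference between tissues, 0.0038 for pericarp over silk in P1-rr (edgeR adjusted p = 0.992), and 1.295 for F1 over P1-rr silk, all past the threshold but the 0.0038. In protoplasts, where the copies were below the filter, Zm00001d018184 passed at 5.61 with DESeq2, 5.40 with all 27 libraries and 5.54 with the replicate block and no filter, Zm00001d018181 at 6.30 with all 27 libraries, and the summed row at 5.84 with the replicate block, with or without the filter. With all 27 libraries the difference between tissues for Zm00001d018184 was -4.92 and its change in pericarp over silk of P1-ww 2.83, neither past the threshold; the cause was not tested.

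Leaving out 1 library gave 4.40 to 8.33 for Zm00001d018184 and 5.44 to 6.75 for Zm00001d018181 in protoplasts, 2.25 to 4.70 for Zm00001d018184 in pericarp over silk of P1-ww, 2.99 to 4.41 for Zm00001d018181 in B73 over A632 silk, and 0.163 to 1.46 for Zm00001d018184 in F1 over P1-rr silk. Among the protoplast values that passed were 6.58 and 6.54 for Zm00001d018181 without 35S:P1 or empty-vector replicate 2 (replicate block, no filter), and for Zm00001d018184 6.01 without 35S:P1 replicate 2 (no filter) and 4.43 without empty-vector replicate 3 (replicate block, no filter). With the filter, the protoplast fit without 1 library tested Zm00001d018184 in 4 of 6 cases and called it in 0 (edgeR adjusted p 0.132 to 0.856, each with an unadjusted p under 0.05). The replicate block changed no call outside protoplasts among the results fitted with it, which leave out Zm00001d018184 between P1-rr and P1-ww pericarp, below the filter there. Fits that left out a library assume that the remaining libraries vary like the rest. Depth limits the values: 8 of the 18 group totals of the copies were 6 counts or fewer.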
